A study of Mus musculus with 8 samples.

Results

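The genes described here are 7 genes tied to lymphatic endothelium, the cells that line lymphatic vessels, measured in fetal mouse lungs with and without tracheal occlusion (TO). They were chosen by symbol and are Prox1, Lyve1, Flt4, Vegfc, Vegfd, Reln and Mmrn1, 7 of the 55385 gene identifiers in the count files. Vegfc and Vegfd encode secreted ligands that act on lymphatic endothelium, so their levels do not mark these cells. The series holds mRNA sequencing of whole C57BL/6 mouse lungs at E18.5 (embryonic day), with 4 control libraries and 4 TO libraries, numbered 1 to 4 in each group. In TO fetuses the trachea was tied off 2 days earlier by a suture passed through the uterine wall, which also took in one carotid artery and one jugular vein, and the dams received progesterone the day before collection. Occlusion of the airway and ligation of the vessels cannot be told apart in this design, and the sources used here do not describe an operation on the controls. The question put to these genes is whether their transcripts differ between control and TO lungs.

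Lymphatic endothelium arises from venous endothelium when the transcription factor PROX1 is switched on, and PROX1 is needed to keep that identity. Growth of the vessels is driven by the secreted ligands VEGF-C and VEGF-D, which act on the receptor VEGFR-3, the product of Flt4. In the fetal lung the lymphatic vessels drain the fluid-filled tissue and serve to clear lung liquid at birth.

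Library TO 1 stands apart by depth, with 270078 counts on genes, where the other 7 libraries held 22822261 to 35002061. A single read in TO 1 was worth 3.45 CPM (counts per 1000000 counts on genes, scaled as below), and its values for the 7 genes rest on 2 to 21 reads. The main comparison used the 6 libraries that the study displayed, controls 1, 2 and 4 and TO 2, 3 and 4, and the values of the 7 genes are also given for control 3 and TO 1. Levels are CPM after scaling by the trimmed mean of M-values (TMM), the SDs are over libraries, and the labels do not say whether libraries of one group came from separate dams, so p-values measure the spread between these libraries. In the 6 libraries 21859 genes were tested with edgeR, and 0 (0%) passed the adjusted p threshold of 0.1. The smallest adjusted p was 0.372, while 1123 genes (5.14%) had an unadjusted p under 0.05, 671 of them (3.07%) higher in TO. DESeq2 called 44 of the same genes (0.201%).

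All 7 genes had reads in all 8 libraries and passed the filter on low counts. None of the 7 was called by edgeR or DESeq2 in the 6 libraries. Prox1, Reln and Mmrn1 had higher means in TO lungs with an unadjusted edgeR p under 0.05, so 3 of 7 genes stood beside 5.14% of all genes. Vegfd had the only lower mean, and Lyve1, Flt4 and Vegfc differed little. The median log2 fold change of the 7 genes was 0.18, beside −0.0045 over all genes tested. The count of 3 was not stable, since it was 1 in all 8 libraries (2.35% of all genes had such a p there), 0 in the 7 libraries without TO 1 (2% of all genes), 1 without control 2 (3.17%) and 0 without TO 3 (3.24%). With the replicate number as a block it was 4 in the 6 libraries (5.92% of all genes), Lyve1 being the fourth, but there only numbers 2 and 4 have both a control and a TO library and the count rests on those 2 pairs. In all 8 libraries the block gave 2, Prox1 and Mmrn1 (4.4%).

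**Figure D1:**
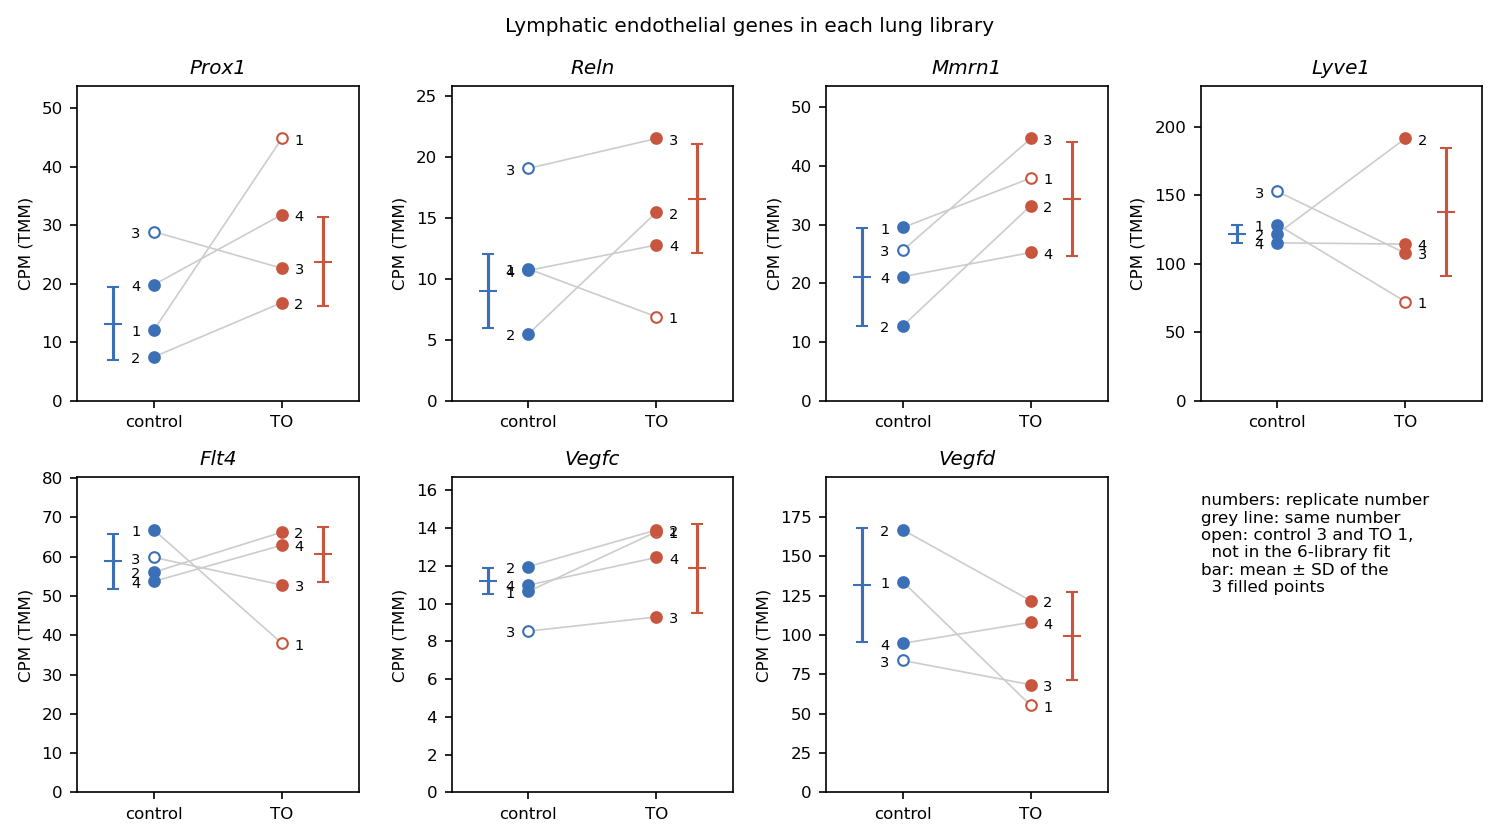
TMM-scaled CPM of the 7 genes (vertical axes, each starting at 0) in the 4 control and 4 TO libraries, with grey lines joining libraries of the same number and bars giving the mean ± SD of the 3 filled points of a group. Control 3 and TO 1 are open points, outside the comparison of 6 libraries. Prox1, Reln and Mmrn1 spread widely within groups, Flt4 is nearly level, and the 3 filled TO points lie above the 3 filled control points for Reln alone.

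Per kilobase of exon, and over the 7 libraries other than TO 1, Vegfd and Lyve1 had the highest levels of the 7 genes, at 46.1 ± 13.7 and 45.6 ± 10.1 CPM per kb (SD, n = 7). Vegfd and Lyve1 did not differ beyond their spread. Flt4 followed at 7.26 ± 0.701, then Mmrn1 at 4.68 ± 1.70, Vegfc at 4.54 ± 0.753, Prox1 at 2.38 ± 1.04 and Reln at 0.577 ± 0.23 CPM per kb. The ranges of Flt4 and Mmrn1 overlapped, as did those of Mmrn1 and Vegfc and of Vegfc and Prox1, whereas Reln in its highest library, 0.907 CPM per kb, reached only just above Prox1 in its lowest, 0.899. Between libraries Prox1 was the most variable of the 7, its highest level being 4.22 times its lowest, followed by Reln at 3.92 times and Mmrn1 at 3.49 times. Flt4 was the steadiest, at 1.26 times. These are whole-lung values, in which fewer cells of a type and less RNA per cell cannot be told apart, and several of the genes are also transcribed in other cells of the lung or of neighboring organs.

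Prox1, Reln and Mmrn1 are the genes whose differences were largest relative to their error, so the 250 bases before their RefSeq start sites are shown here (GRCm38.p6). They lie at chr1:190170828-190171077 on the minus strand for Prox1, chr5:22344706-22344955 on the minus strand for Reln and chr6:60944067-60944316 on the plus strand for Mmrn1, each written 5′ to 3′ along the gene. The RefSeq start used for Mmrn1 lies 19341 bases inside the gene as GENCODE draws it, and Prox1 has a second RefSeq start whose window is not shown (56.0% G and C, none of the words below). Capitals mark matches, on either strand, to 3 words of 6 letters taken from factors that act in lymphatic endothelium, namely CGGAAG for ETS factors, AACAAT for SOX factors and AGGTCA for NR2F receptors.
Prox1: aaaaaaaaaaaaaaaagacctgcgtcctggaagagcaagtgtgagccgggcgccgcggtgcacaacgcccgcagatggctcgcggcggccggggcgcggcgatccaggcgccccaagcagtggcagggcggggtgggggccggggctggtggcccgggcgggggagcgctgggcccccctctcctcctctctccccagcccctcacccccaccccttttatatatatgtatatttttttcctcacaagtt
Reln: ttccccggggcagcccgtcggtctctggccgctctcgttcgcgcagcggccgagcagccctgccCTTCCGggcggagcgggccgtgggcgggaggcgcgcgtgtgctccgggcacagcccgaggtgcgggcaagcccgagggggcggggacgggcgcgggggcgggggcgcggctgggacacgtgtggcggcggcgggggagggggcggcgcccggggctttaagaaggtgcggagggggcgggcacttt
Mmrn1: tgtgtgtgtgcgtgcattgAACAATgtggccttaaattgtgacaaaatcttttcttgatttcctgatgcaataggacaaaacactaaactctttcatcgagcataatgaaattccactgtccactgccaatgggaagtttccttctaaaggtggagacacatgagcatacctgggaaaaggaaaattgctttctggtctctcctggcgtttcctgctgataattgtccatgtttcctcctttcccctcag
The stretch of Prox1 held 20 CpG pairs at 64.8% G and C and none of the 3 words. Reln held 37 CpG pairs at 80.0% G and C and 1 match to the ETS word, printed as its reverse complement. Mmrn1 held 3 CpG pairs at 42.4% G and C and 1 match to the SOX word. Such matches are common, since the ETS word stood in 13.8%, the SOX word in 9.65% and the NR2F word in 13.8% of 27025 promoter stretches of this length, whose median G and C content was 52.0%. The 3 windows thus share neither a word nor a base composition, and with other start sites the windows would differ. RefSeq promoter entries were found for 6 of the 7 genes, all but Lyve1, and Flt4, Vegfc and Vegfd held none of the 3 words.

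Prox1, the transcription factor that sets lymphatic identity, lies at chr1:190118035-190170714 on the minus strand (GRCm38, GENCODE M21). It had 12.1, 7.54, 28.9 and 19.9 CPM in controls 1 to 4, and 44.9, 16.8, 22.7 and 31.8 CPM in TO 1 to 4. The 44.9 CPM of TO 1 came from 13 reads, with an exact 95% Poisson interval of 23.8 to 76.5 CPM that covers counting error only. Controls 1 and 2 were the lowest of the 8 libraries, control 3 was higher than TO 2 and TO 3, and the groups overlapped. In the 6 libraries the mean was 13.2 ± 6.23 CPM in controls and 23.8 ± 7.58 CPM in TO lungs (SD, n = 3 each). The log2 fold change was 0.85 with a standard error of 0.36 and a 95% interval of 0.048 to 1.65 (edgeR, unadjusted p = 0.0400, adjusted p = 0.907). DESeq2 gave an adjusted p of 0.482.

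The titles give each group the numbers 1 to 4, and Prox1 was higher in TO than in the control of the same number in 3 of 4 pairs, number 3 being the exception. With the number as a block, the log2 fold change of Prox1 in the 6 libraries was 0.92 with a standard error of 0.23 (edgeR, adjusted p = 0.0489), a call that was 1 of 219 among all genes (1%). Control 1 and TO 3 have no partner among these 6 libraries, so the estimate and its error rest on pairs 2 and 4 alone, with log2 differences of 1.15 and 0.68, and 1 residual degree of freedom per gene before the spread is shared across genes. Pair 1, with the largest difference (1.88, from 13 reads in TO 1), and pair 3 (−0.35) do not enter it. With the block in all 8 libraries the log2 fold change was 0.69 (unadjusted p = 0.0271, edgeR adjusted p = 1), and 3 genes (0.0133%) were called. Without the block, Prox1 had a log2 fold change of 0.61 in all 8 libraries (95% interval −0.27 to 1.48) and of 0.47 without TO 1 (−0.43 to 1.38), and neither passed.

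PROX1 is also made in developing heart muscle, in liver and in pulmonary neuroendocrine cells, so markers of each were set beside it. The summed level of 8 cardiomyocyte genes was 750, 475, 4819 and 3788 CPM in controls 1 to 4 and 5876, 2459, 3713 and 4762 CPM in TO 1 to 4. Controls 1 and 2 were the lowest libraries for heart muscle transcripts, by a wide gap, and also the lowest for Prox1, by a narrower one. In the 6 libraries the mean of 8 of 8 cardiomyocyte genes was higher in TO lungs (median of the log2 fold changes 1.12), and 0 had an unadjusted p under 0.05. The most abundant of them, Myh6 and Actc1, which encode heart muscle myosin and actin, had log2 fold changes of 1.08 ± 0.65 and 1.17 ± 0.72 (SE, edgeR adjusted p = 0.907 for each). The mean log2 level of the cardiomyocyte genes was also used as a covariate, chosen after it and Prox1 were seen to move together. The log2 fold change of Prox1 was then 0.15 in the 6 libraries (95% interval −0.59 to 0.90) and 0.06 in all 8 (−0.53 to 0.65). Since the covariate followed Prox1 and was lowest in controls 1 and 2, a smaller estimate was built in. It is no test of where the transcripts came from. In the same fits Reln was at 0.61 and 0.16 and Mmrn1 at 0.66 and 0.56. The intervals in the 6 libraries, −0.33 to 1.56 for Reln and −0.35 to 1.66 for Mmrn1, were wide and overlapped that of Prox1. The summed level of 7 hepatocyte genes ran otherwise, at 701, 2.31, 20.5 and 20.4 CPM in the controls and 86.3, 25, 12.8 and 376 CPM in the TO libraries. Albumin, Alb, was highest in control 1, at 505 CPM, a library with little Prox1, and Ahsg, the liver glycoprotein fetuin-A, was there at 72.4 CPM. The summed level of 6 neuroendocrine genes was 12.8 to 15.3 CPM in controls and 14.3 to 18.0 CPM in TO lungs. The share of heart muscle, liver or neuroendocrine cells in the Prox1 values was not tested.

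**Figure D2:**
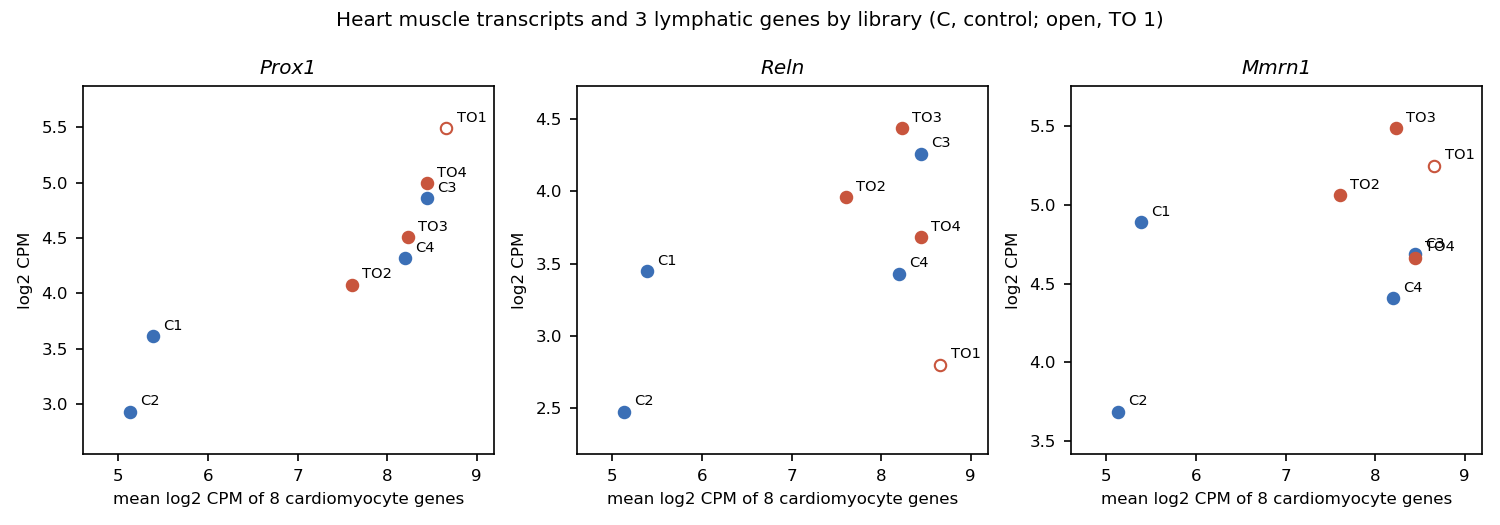
Log2 CPM of Prox1, Reln and Mmrn1 (vertical axes) against the mean log2 CPM of 8 cardiomyocyte genes (horizontal axis) in each library, controls in blue (C), TO in red, and TO 1, which rests on 13, 2 and 11 reads, as an open point. For Prox1 the libraries lie along one rising band from control 2 to TO 1. For Mmrn1, TO 2 and TO 3 lie above control 3 and control 4, which had similar or higher cardiomyocyte levels. TO 4 (25.3 CPM of Mmrn1) does not lie above control 3 (25.7 CPM), which had nearly the same cardiomyocyte level. Control 1, among the lowest for heart muscle transcripts, lies above TO 4 for Mmrn1, at 29.5 CPM.

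The genes whose levels followed Prox1 most closely over the 7 libraries other than TO 1 were Ckm, Adcy5, Trdn, Inhba and Klhl41, out of 15895 genes with a mean of at least 1 CPM. Their Pearson correlations with Prox1 on the log2 scale were 0.989, 0.986, 0.985, 0.983 and 0.983, given as a description over 7 points in which controls 1 and 2 were low for all of them. Ckm encodes the creatine kinase of muscle, Trdn encodes triadin of the muscle calcium release complex, and Klhl41 acts in muscle fibers. No list of skeletal muscle genes was set beside Prox1, and heart and skeletal muscle were not told apart. Ckm had 20.9, 8.71, 130 and 79.1 CPM in controls 1 to 4 and 52.4, 70.2 and 138 CPM in TO 2 to 4. Apart from control 4 and TO 3, which changed places, the 7 libraries stood in the same order for Ckm and for Prox1. The 8 cardiomyocyte genes ranked from 10 (Ryr2) and 15 (Actc1) through 168 (Myh6) to 635 (Nppa, r = 0.816) in likeness to Prox1. Reln ranked 826 (r = 0.784) and Mmrn1 ranked 2491 (r = 0.533), Flt4 and Lyve1 were near 0 (r = −0.016 and −0.031), and Vegfc and Vegfd were negative (r = −0.32 and −0.78).

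Reln encodes reelin, a large secreted glycoprotein that lymphatic endothelial cells make and that takes part in covering collecting vessels with smooth muscle. The gene lies at chr5:21884454-22344702 on the minus strand. Its level was 10.8, 5.49, 19.1 and 10.7 CPM in controls 1 to 4 and 6.90, 15.5, 21.5 and 12.8 CPM in TO 1 to 4. The TO 1 value was 2 reads, with an exact 95% Poisson interval of 0.834 to 24.9 CPM. TO 2, 3 and 4 were each above controls 1, 2 and 4, but control 3 was higher than TO 2 and TO 4. The mean in the 6 libraries was 9.0 ± 3.04 CPM in controls and 16.6 ± 4.48 CPM in TO lungs (SD, n = 3 each). Its log2 fold change was 0.88 with a standard error of 0.30 and a 95% interval of 0.20 to 1.56 (edgeR, unadjusted p = 0.0169, adjusted p = 0.907). Of all genes tested, 10.9% had non-overlapping groups in these 6 libraries, and 5.1% with TO above control. With control 3 included the groups overlapped (3.97% of all genes did not overlap in those 7 libraries) and the log2 fold change was 0.52 (95% interval −0.29 to 1.34), and in all 8 libraries it was 0.44 (−0.34 to 1.23). Reelin is also made by neurons, and of 6 neuronal genes 3 had higher and 3 lower means in TO. Their summed level was 14.4 to 26.4 CPM in controls and 31.2, 19.4 and 26.4 CPM in TO 2, 3 and 4. TO 1 was at 48.3 CPM, where 1 read is 3.45 CPM.

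Mmrn1 encodes multimerin 1, a secreted protein of lymphatic and other endothelium that is also stored in platelets. The gene lies at chr6:60924976-60989378 on the plus strand. It had 29.5, 12.8, 25.7 and 21.2 CPM in controls 1 to 4 and 38, 33.3, 44.7 and 25.3 CPM in TO 1 to 4. Mmrn1 was higher in TO in 4 of 4 pairs of the same number, and TO 4 alone lay within the range of the controls. TO 1 rests on 11 reads, and its exact 95% Poisson interval of 18.9 to 67.8 CPM covers control 1. How many of all genes had 4 of 4 pairs in 1 direction was not counted. The means in the 6 libraries were 21.2 ± 8.36 CPM in controls and 34.4 ± 9.76 CPM in TO lungs (SD, n = 3 each). This gave a log2 fold change of 0.70 with a standard error of 0.30 and a 95% interval of 0.014 to 1.38 (edgeR, unadjusted p = 0.0463, adjusted p = 0.907). Mmrn1 moved least of the 3 genes when libraries were added, to 0.63 without TO 1 and 0.64 in all 8 libraries. With the block its edgeR adjusted p was 0.108 in the 6 libraries, from the 2 pairs 2 and 4 (log2 differences 1.37 and 0.26), and 0.781 in all 8.

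Of 9 megakaryocyte and platelet genes, 6 had higher and 3 lower means in TO lungs, and the median of their log2 fold changes was 0.14. Their summed level was 23.1 to 31.5 CPM in controls and 27.6 to 37.2 CPM in TO lungs. Pf4, the platelet chemokine, was the only one with an unadjusted p under 0.05, with 5.08, 7.44, 5.65 and 4.89 CPM in controls 1 to 4 and 3.45, 10.1, 14.7 and 9.29 CPM in TO 1 to 4. Its log2 fold change was 0.96 ± 0.27 (SE, edgeR adjusted p = 0.907), while Itga2b, the platelet integrin, was at 0.14 ± 0.22. The part of platelet RNA in the Mmrn1 values was not tested.

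**Figure D3:**
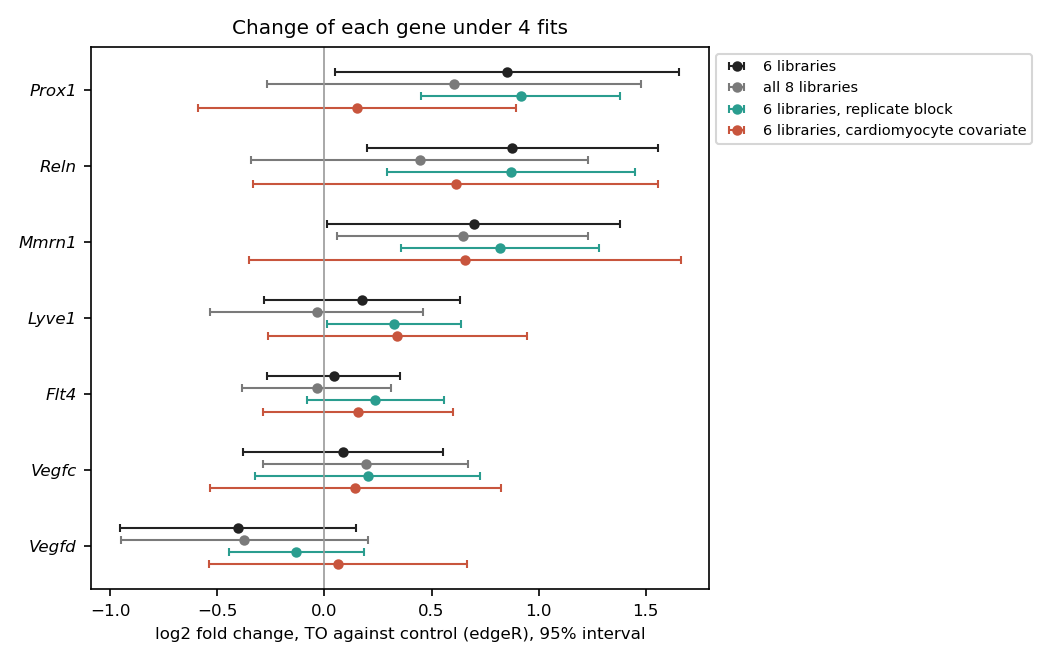
Log2 fold change of TO against control (horizontal axis) with 95% intervals for the 7 genes in 4 edgeR fits, namely the 6 libraries, all 8 libraries, the 6 libraries with the replicate number as a block, and the 6 libraries with the cardiomyocyte level as a covariate. The Prox1 estimate drops from 0.85 to 0.15 with the covariate, a drop that was built in because the covariate was chosen for following Prox1. The Mmrn1 estimates lie between 0.64 and 0.82. With the covariate the intervals of both genes include 0 and overlap, and the block fit rests on 2 pairs. The intervals of Flt4 and Vegfc include 0 in each fit.

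Lyve1, the hyaluronan receptor of lymphatic capillaries, lies at chr7:110850607-110863239 on the minus strand. It had 129, 122, 153 and 115 CPM in controls 1 to 4 and 72.5, 191, 108 and 114 CPM in TO 1 to 4. TO 2 was the highest library and TO 1, with 21 reads, the lowest, so the TO group enclosed the controls. The means in the 6 libraries were 122 ± 6.64 CPM in controls and 138 ± 46.5 CPM in TO lungs (SD, n = 3 each). Lyve1 had a log2 fold change of 0.18 with a 95% interval of −0.28 to 0.63 (edgeR adjusted p = 0.946), and it was −0.13 without TO 2 and −0.04 in all 8 libraries.

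Tissue macrophages can also carry LYVE1, so 11 macrophage genes, of which 10 passed the filter, were set beside it. Of the 10, 9 had higher means in TO and 7 had an unadjusted edgeR p under 0.05, beside 5.14% of all genes. The median of the 10 log2 fold changes was 0.77, and none of the 10 was called. The summed level of the 11 genes was 168 to 185 CPM in the 4 controls and 194 to 326 CPM in the 4 TO libraries. TO 1 was at 238 CPM, in a library where 1 read is 3.45 CPM, and no share over all genes was computed for such sums. By the mean log2 CPM of the 11 genes the groups overlapped, with control 1 at 2.94, control 3 at 2.90 and TO 2 at 2.86. F13a1, coagulation factor XIII A of resident macrophages, had a log2 fold change of 0.72 ± 0.21 and Csf1r, the receptor that macrophages need to survive, one of 0.44 ± 0.14 (SE, edgeR adjusted p = 0.907 for both). The library highest for Lyve1, TO 2, was the lowest of the 4 TO libraries for the macrophage genes. Lyve1 was lower in TO 3, the library with the most macrophage transcript, than in every control. The part of macrophage RNA in the Lyve1 values was not tested.

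Flt4, the gene of VEGFR-3, lies at chr11:49609263-49652739 on the plus strand. Its level was 66.8, 56.1, 59.8 and 53.7 CPM in controls 1 to 4 and 38, 66.3, 52.8 and 62.9 CPM in TO 1 to 4. Apart from TO 1, which had 11 reads, all libraries lay close together and the groups overlapped throughout. The means in the 6 libraries were 58.9 ± 6.97 and 60.7 ± 6.99 CPM (SD, n = 3 each). The log2 fold change of 0.04 had a 95% interval of −0.27 to 0.35 (edgeR adjusted p = 0.982). This was the narrowest interval of the 7 genes.

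Vegfc encodes the main growth factor of lymphatic vessels and lies at chr8:54077606-54187096 on the plus strand. It had 10.6, 12.0, 8.54 and 11 CPM in controls 1 to 4 and 13.8, 13.9, 9.29 and 12.4 CPM in TO 1 to 4. In each of the 4 pairs of the same number TO was the higher, by 0.12 to 0.37 on the log2 scale, and control 3 and TO 3 were the lowest of their groups. The largest difference, in pair 1, rests on 4 reads in TO 1, whose exact 95% Poisson interval of 3.75 to 35.3 CPM covers control 1. The share of all genes with 4 of 4 pairs in 1 direction was not counted. The means in the 6 libraries were 11.2 ± 0.681 and 11.9 ± 2.35 CPM (SD, n = 3 each). The log2 fold change was 0.09 with a 95% interval of −0.38 to 0.55 (edgeR adjusted p = 0.977), and with the replicate number as a block in all 8 libraries it was 0.19 (unadjusted p = 0.402, edgeR adjusted p = 1).

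Vegfd encodes the second ligand of VEGFR-3, abundant in the mesenchyme of fetal lung, and lies at chrX:164373378-164402650 on the plus strand. It had 134, 167, 83.8 and 94.7 CPM in controls 1 to 4 and 55.2, 122, 68.4 and 108 CPM in TO 1 to 4. Controls 1 and 2 were the highest but the groups overlapped, and TO was the lower in 3 of 4 pairs of the same number. The means in the 6 libraries were 132 ± 36.0 CPM in controls and 99.4 ± 27.7 CPM in TO lungs (SD, n = 3 each). The log2 fold change was −0.40 with a 95% interval of −0.96 to 0.15 (edgeR, unadjusted p = 0.132, adjusted p = 0.907). With the cardiomyocyte covariate it was 0.06 in the 6 libraries, controls 1 and 2 being both the highest for Vegfd and the lowest for heart muscle transcripts. Of 7 lung mesenchyme genes, 3 had higher and 4 lower means in TO lungs, and the median of their log2 fold changes was −0.02. The most abundant were the collagens Col3a1, at 0.14 ± 0.13, and Col1a1, at −0.06 ± 0.14 (SE).

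The 10 genes of endothelium in general, which are not specific to lymphatic vessels, were detected in all libraries, Cdh5 at 356 to 634 CPM and Pecam1 at 300.2 to 590 CPM. In the 6 libraries 8 of 10 had lower means in TO lungs (median of the log2 fold changes −0.18), and none was called. Plvap, which forms the diaphragms of capillary pores, was the one with an unadjusted p under 0.05, with a log2 fold change of −0.35 ± 0.12 (SE, edgeR adjusted p = 0.907), or −0.15 in all 8 libraries, where control 3 had the lowest level, 67.6 CPM. Measured relative to the mean log2 level of these 10 genes in each library, Prox1 was higher in TO by 1.09, Reln by 1.09, Mmrn1 by 0.92, Lyve1 by 0.31, Vegfc by 0.25 and Flt4 by 0.22, and Vegfd was lower, at −0.23. The two-sided exact permutation p of these differences was 0.1 for Reln, Mmrn1, Lyve1 and Vegfc, 0.2 for Prox1 and Flt4 and 0.4 for Vegfd, and 0.1 is the smallest that 3 against 3 libraries can give. Adjusted over the 7 genes by Benjamini-Hochberg, these permutation p-values ran from 0.175 to 0.4. In all 8 libraries Mmrn1 and Vegfc reached an unadjusted exact permutation p of 0.0286, at 0.98 and 0.51, the smallest that 4 against 4 can give. Adjusted over the 7 genes that permutation p was 0.1 for both. Without TO 1, where Vegfc rests on 4 reads, they were at 0.82 and 0.33, each with an exact permutation p of 0.0571. With library scaling on the counts of these genes the median over all genes tested moved to 0.16, a shift in the direction of the 6 higher genes and against that of Vegfd.

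Beyond the 7 genes, 56 genes of lymphatic development in 5 lists were measured, and all 56 passed the filter. None was called by edgeR or DESeq2 in the 6 libraries, 30 had higher and 26 lower means in TO, and the median log2 fold change was 0.01. An unadjusted edgeR p under 0.05 was found for 7 of the 56, beside 5.14% of all genes, 6 of them higher and 1 lower. Over the alternative fits that number ran from 1 without TO 1, where 2% of all genes had such a p, to 15 without TO 4, where 10.7% had. Leaving out control 4 made 1 of the 56 pass, Foxc1, a forkhead factor of vessel development (log2 fold change 2.24, edgeR adjusted p = 0.0822), beside 0.247% of all genes called in that fit. Foxc1 had 1.97, 1.69, 7.53 and 7.67 CPM in controls 1 to 4 and 6.90, 7.18, 8.10 and 10.7 CPM in TO 1 to 4, so controls 3 and 4 lay within the TO range.

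In the list of VEGF ligands, receptors and processing enzymes 8 of 11 genes had higher means. Vegfa, Kdr and Nrp1, the growth factor of blood vessels with its receptor and co-receptor, were the most abundant, with log2 fold changes of 0.27 ± 0.30, 0.01 ± 0.14 and 0.18 ± 0.13 (SE). Furin, a protease that cleaves the precursors of VEGF-C and VEGF-D, was at 134, 141, 173 and 145 CPM in controls 1 to 4 and at 128, 168, 175 and 155 CPM in TO 1 to 4. TO 2, 3 and 4 lay above controls 1, 2 and 4 but control 3 lay within the TO range, and the log2 fold change was 0.24 ± 0.10 (SE, unadjusted p = 0.037, edgeR adjusted p = 0.907), or 0.10 in all 8 libraries (unadjusted p = 0.486 by edgeR).

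Of 12 transcription factors 6 had higher and 6 lower means. Nr2f2, the venous factor that acts with PROX1, was at −0.05 ± 0.12, with Maf at 0.19 ± 0.17 and Elk3 at −0.10 ± 0.18 (SE). Foxc2, which is needed for lymphatic valves, had 1.67, 1.5, 3.93 and 3.63 CPM in controls 1 to 4 and 3.45, 4.0, 5.74 and 5.0 CPM in TO 1 to 4. As for Prox1, controls 1 and 2 were the lowest libraries, and the log2 fold change was 1.11 ± 0.41 (SE, unadjusted p = 0.023, edgeR adjusted p = 0.907).

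Among 7 other lymphatic markers 3 had higher and 4 lower means. Pdpn, podoplanin, which lung epithelium makes as well, was at −0.49 ± 0.26, Stab2, a scavenger receptor, at −0.06 ± 0.24 and Ackr2, a chemokine decoy receptor, at 0.32 ± 0.39 (SE). Thy1 had 4.03, 3.38, 6.09 and 3.39 CPM in controls 1 to 4 and 135, 5.50, 6.82 and 5.34 CPM in TO 1 to 4. TO 1 stood far above every other library for this gene, which thymocytes carry at high level, and in the 6 libraries the log2 fold change was 0.71 ± 0.26 (SE, unadjusted p = 0.024, edgeR adjusted p = 0.907).

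Among 22 genes of vessel growth, remodeling and valves 9 had higher and 13 lower means. Gja1, a gap junction protein, was at 0.15 ± 0.11, Acvrl1, a receptor of the BMP family, at −0.13 ± 0.20 and Tie1, an endothelial receptor related to TIE2, at −0.15 ± 0.18 (SE). Both ligands of the TIE2 receptor had higher means in TO, Angpt1 with 49.0 CPM in controls and 64.4 CPM in TO lungs and Angpt2 with 14.5 and 20.8 CPM (means of 3 libraries). Their log2 fold changes were 0.39 ± 0.14 and 0.52 ± 0.16 (SE, unadjusted p = 0.024 and 0.011, edgeR adjusted p = 0.907 for both), and in all 8 libraries they were 0.32 and 0.22. Control 3, at 27.8 CPM, was the highest library for Angpt2. Svep1, a matrix protein that binds ANGPT2, was the one lower gene, at 211 CPM in controls and 177 CPM in TO lungs, with a log2 fold change of −0.26 ± 0.11 (SE, unadjusted p = 0.039, edgeR adjusted p = 0.907) and of −0.36 in all 8 libraries. The 4 genes by which platelets keep blood and lymph vessels apart, led by Syk at 0.07 ± 0.15, Plcg2 at 0.46 ± 0.22 and Lcp2 at 0.30 ± 0.24 (SE), had higher means in TO throughout, and none had an unadjusted p under 0.05.

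**Figure D4:**
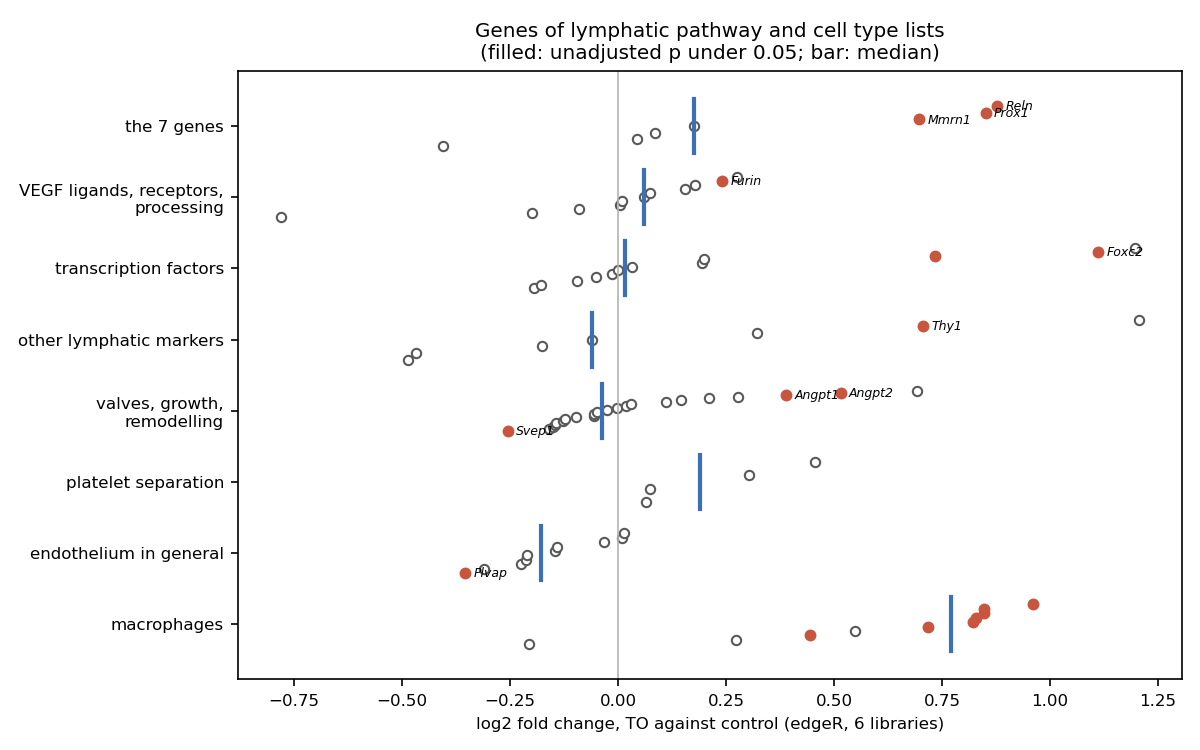
Log2 fold change of TO against control in the 6 libraries (horizontal axis, edgeR) for every tested gene of the 7 described here, of the 5 lymphatic lists, of endothelium in general and of macrophages, each point being a gene and each bar the median of its list. Filled points have an unadjusted p under 0.05, none passed adjustment, and the medians of the 5 lymphatic lists lie between −0.06 and 0.19 where that of the macrophage genes is 0.77.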

How the data were processed

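Whole lungs of 4 control and 4 TO fetuses were profiled by mRNA sequencing. The authors made Nextera XT libraries with paired reads and aligned them with STAR to GRCm38 (mm10 in the submitters' processing notes, which also name DESeq2). The deposited files hold raw read counts per gene for unstranded, first-strand and second-strand counting. The unstranded column was used, since 49.9% to 50.1% of stranded reads lay on one strand. Prox1 and Reln share 1.59% and 1.04% of their exon bases with overlapping genes. The stranded counts of Prox1, 2278 and 1942, together exceeded its unstranded 4124, as did those of Reln, 1466 and 1471 beside 2755. Reads on shared bases are thus missing from the unstranded values of these genes. Rows that name no gene (23.1% to 27.1% of counts) were left out. Of 55385 identifiers, 54487 equal those of GENCODE M21 and 55144 match without version.

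Counts were fitted with edgeR 4.0.16 (quasi-likelihood test, TMM) in R 4.3.3, keeping genes with at least 5 reads in at least 3 libraries, and p-values were adjusted over all genes tested by Benjamini-Hochberg with a threshold of 0.1. CPM are per 1000000 counts on genes, with log2 CPM from a prior count of 2. The fit was first run on simulated counts with known changes, all larger than those of the 7 members. Such a run does not show how well smaller changes are found. DESeq2 1.42.0, limma 3.58.1, other scalings and filters, other sets of libraries and a replicate block were alternatives, and cardiomyocyte covariates were added after the data were seen. The members and gene lists were chosen with earlier results of these data known. Named genes were the 7 members, the 3 most abundant genes of each lymphatic list, the 2 most abundant of each cell type list, the 5 genes most correlated with Prox1, genes called and, in lymphatic lists, genes with an unadjusted p under 0.05. Plvap, Ryr2 and Foxc1 were named after their values were seen. Of the genes this rule names, 2 are not reported here.

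The numbers in the titles are not explained in the labels. Deviations of same-numbered libraries from their group means correlated at 0.124, 0.352, 0.388 and 0.362 over 10826 genes with a mean of at least 10 CPM, but at 0.052, 0.130, 0.157 and 0.071 over all 22545 genes tested in 8 libraries, so the pairing rests on the abundant genes. Over the abundant genes 2 pairs of unlike number also passed 0.1, control 1 with TO 4 at 0.260 and control 4 with TO 1 at 0.155, the latter above control 1 with TO 1. In the 6 libraries the block has 2 complete pairs, numbers 2 and 4.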

Additional observations from a re-analysis of the deposited data

How the results depend on the processing

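Prox1 passed the threshold in 1 of 21 alternative fits, the replicate block in 6 libraries, which rests on the 2 complete pairs (log2 fold change 0.92, 1 of the 7 genes called), and no other member was called in any. The adjusted p of Prox1 (edgeR, DESeq2 or limma) ranged from 0.0489 to 1 over them, that of Mmrn1 from 0.108 to 1 and that of Reln from 0.257 to 1. The genes called over all genes numbered 44 with DESeq2, 40 with every gene that had a read, 219 with the replicate block in 6 libraries and 3 with the block in all 8, and 0 to 144 when each library was left out in turn, 52 without control 4 and 144 without TO 4. Leaving out 1 library at a time gave 0 to 1 called genes in the lymphatic lists. Small differences changed sign. Lyve1 was at −0.0361 in all 8 libraries, −0.0968 with the replicate block in all 8, −0.0843 with specimen digits of the file names as the block, and between −0.132 and 0.336 with 1 library left out. Flt4 was at −0.0361, −0.0171 and −0.018 in those fits and between −0.0202 and 0.146 with 1 library left out. Vegfc was at −0.0175 on the first-strand counts and between −0.0374 and 0.246 with 1 library left out. Vegfd was at 0.0617 and 0.0497 with the cardiomyocyte covariate in 6 and in 8 libraries. With 1 library left out Prox1 lay between 0.57 and 1.28, Reln between 0.62 and 1.04, Mmrn1 between 0.44 and 1.02 and the median of the 7 between −0.02 (without TO 2) and 0.34. Relative to endothelial genes in all 8 libraries, Mmrn1 at 0.98 and Vegfc at 0.51 reached an unadjusted exact permutation p of 0.0286 (0.1 adjusted over the 7 genes). Without TO 1 the unadjusted exact permutation p of each was 0.0571. The causes of these shifts were not tested. Depth limits TO 1, where 3 reads are 10.4 CPM, so that Reln and Vegfc there are near what counting can show.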

Other observations

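Vegfd and Vegfc were lowest in the same-numbered libraries of both groups. Among the 7 libraries other than TO 1, control 3 and TO 3 had the lowest Vegfd, at 83.8 and 68.4 CPM, and the lowest Vegfc, at 8.54 and 9.29 CPM. The same 2 libraries had the highest Reln, at 19.1 and 21.5 CPM, and 59.0 and 61.0 CPM of Elk3, an ETS factor, where the other 5 had 85.4 to 104 CPM. No test was made of this pattern, which was noticed in the values.

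Neuroendocrine genes, which mark a rare airway cell type that also makes PROX1, were measured as a further list of 6 genes. Of these, 3 had higher and 3 lower means in TO. Chga, which encodes chromogranin A, had 0.526, 0.682, 1.78 and 0.646 CPM in controls 1 to 4 and 0, 2.92, 4.42 and 1.22 CPM in TO 1 to 4. It had a log2 fold change of 2.18 ± 0.54 (SE, edgeR adjusted p = 0.907) and was the one gene of all lists that DESeq2 called (adjusted p = 0.0983), while Calca, the most abundant of the list, was at 0.29 ± 0.23 (SE). A count of 0 in TO 1 allows up to 10.4 CPM. Of the neuronal genes the most abundant, Stmn2 and Tubb3, were at 0.03 ± 0.24 and −0.13 ± 0.45 (SE).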
